A study of Mus musculus with 18 samples.

Results

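The proneural bHLH genes are 9 mouse genes for basic helix-loop-helix transcription factors that start or carry out the making of neurons: Neurog1, Neurog2, Neurog3, Atoh1, Neurod1, Neurod2, Neurod4, Nhlh1 and Nhlh2. They were taken by name, as 9 of the 21900 protein-coding genes with a position on the mm10 genome. What was measured is whether, and over what length, each of them lay under the histone mark H3K27me3. The mark was profiled by CUT&Tag, in which an antibody directs a transposase to marked chromatin and the DNA cut there is sequenced. The tissue was the headfold, the front end of the mouse embryo with the future brain, at embryonic day 8.5, with 1 headfold in each reaction.

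Every embryo was Gulo-/-, which removes the last enzyme of vitamin C synthesis, so that embryos depend on vitamin C from the dam. The 4 groups, with 3 libraries each, were B6 without vitamin C, B6 with vitamin C, 129 without vitamin C and 129 with vitamin C. The series' design text names the second background 129S6.B6-Gulo-/-. Dams of the groups with vitamin C had it in their drinking water at 3.3 g/l, and those without had none. Each group held 2 female embryos and 1 male embryo. The 3 B6 embryos with vitamin C carried a single pregnancy code, so that group can speak for 1 litter only, whereas the codes differed among the embryos of each other group. The comparisons ask whether lack of vitamin C, or the background, goes with a different extent of the mark at these genes.

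Proneural factors pair with E proteins and bind E-box sequences at the genes they switch on. Neurog and Atoh1 proteins commit progenitors to become neurons and turn on Notch ligands, by which neighbouring cells are held back, and Neurod and Nhlh proteins act later in the same cells. H3K27me3 is set by Polycomb repressive complex 2, which in embryonic tissue typically covers developmental regulators that are silent, often at promoters rich in CpG dinucleotides.

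The promoter sequences below are shown because the position of the mark relative to the start differed between these genes. Each is the 250 bases before the annotated transcription start, 5′ to 3′ on the strand of the gene, from RefSeq on GRCm38.p6, the assembly that mm10 stands for, with CpG dinucleotides in capitals. Neurog1 (chr13:56252181-56252430, minus strand) and Neurog3 (chr10:62132840-62133089, plus strand) had a peak over the start in every library, and Atoh1 (chr6:64728875-64729124, plus strand) in 11 of 12. Nhlh1 (chr1:172057597-172057846, minus strand) had its mark further into the gene, and Neurod4 (chr10:130280255-130280504, minus strand) had none.
Neurog1: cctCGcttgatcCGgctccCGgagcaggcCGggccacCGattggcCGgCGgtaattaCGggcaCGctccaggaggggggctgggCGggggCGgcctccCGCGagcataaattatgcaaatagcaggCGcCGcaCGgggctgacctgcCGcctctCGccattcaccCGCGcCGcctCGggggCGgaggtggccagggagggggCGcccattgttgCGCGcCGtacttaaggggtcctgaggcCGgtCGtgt
Neurog3: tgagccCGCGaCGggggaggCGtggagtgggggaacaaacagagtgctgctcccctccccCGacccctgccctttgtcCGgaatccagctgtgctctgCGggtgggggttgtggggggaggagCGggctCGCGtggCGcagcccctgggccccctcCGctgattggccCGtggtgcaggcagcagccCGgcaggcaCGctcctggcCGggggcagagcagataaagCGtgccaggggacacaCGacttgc
Atoh1: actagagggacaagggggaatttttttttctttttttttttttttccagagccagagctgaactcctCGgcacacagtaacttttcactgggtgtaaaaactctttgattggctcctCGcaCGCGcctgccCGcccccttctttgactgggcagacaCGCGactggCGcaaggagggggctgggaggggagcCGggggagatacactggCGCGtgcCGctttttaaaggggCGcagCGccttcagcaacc
Nhlh1: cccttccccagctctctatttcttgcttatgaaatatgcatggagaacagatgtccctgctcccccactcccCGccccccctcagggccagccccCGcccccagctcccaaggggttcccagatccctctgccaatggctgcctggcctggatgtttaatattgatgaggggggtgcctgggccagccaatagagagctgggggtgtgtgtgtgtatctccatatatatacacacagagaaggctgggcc
Neurod4: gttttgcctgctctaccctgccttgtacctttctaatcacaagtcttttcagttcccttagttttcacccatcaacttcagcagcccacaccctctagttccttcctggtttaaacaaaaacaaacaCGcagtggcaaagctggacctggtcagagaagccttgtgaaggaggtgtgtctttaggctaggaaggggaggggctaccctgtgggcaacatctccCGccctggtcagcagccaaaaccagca
The stretches hold 29 CpG in Neurog1, 18 in Neurog3, 14 in Atoh1, 2 in Nhlh1 and 2 in Neurod4.

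The peak lists differed in length and grain before any gene was considered. They held 748 to 4726 peaks and marked 651 to 3753 protein-coding genes. The median peak width of a list was 1.32 to 4.89 kb in the 6 B6 lists and 4.10 to 8.45 kb in the 6 lists of 129. B6 without vitamin C replicate 1 and B6 with vitamin C replicate 2 stood apart with medians of 1.32 and 1.41 kb. B6 without vitamin C replicate 2 and 129 without vitamin C replicate 2 had the fewest peaks, with 748 and 1388. Of markers of tissues the headfold could hold, all 4 heart genes listed (Nkx2-5, Tbx5, Hand2, Gata4) carried a peak in all 12 libraries. Of 6 anterior neural genes listed, 3 were marked in at least 10 libraries, among them Lhx2 in 12 and Six3 in 11, while Otx2 was marked in 3, Sox2 in 2 and Hesx1 in 0. The mark gives no RNA level, so these values do not count cells.

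H3K27me3 was present at 8 of the 9 proneural genes, and at most of them in nearly every embryo. A gene is called marked where a peak overlaps its span extended by 1 kb at each end. Neurog1, Neurog3 and Neurod2 were marked in all 12 libraries, Neurog2, Neurod1, Atoh1 and Nhlh2 in 11, Nhlh1 in 8 and Neurod4 in 0. Thus 7 of 9 were marked in at least 10 libraries, against 5.93% of all 21900 genes (1298 genes). For marking in all 12 libraries the figures were 3 of 9 and 2.18%. Of all genes, 79.8% were marked in none.

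The absent peaks fell mostly in the shortest lists. B6 without vitamin C replicate 2 lacked a peak at Neurog2, Neurod1, Atoh1 and Nhlh1, and 129 without vitamin C replicate 2 lacked one at Nhlh1 and Nhlh2. The only other gaps were at Nhlh1 in B6 without vitamin C replicate 1 and in B6 with vitamin C replicate 1. The number of marked genes per library was 4 to 8 in B6 without vitamin C, 7 to 8 in B6 with vitamin C, 6 to 8 in 129 without vitamin C and 8 in each library of 129 with vitamin C. Cut to an equal length of 748 peaks by total signal, the lists left 3 of the 9 genes marked in at least 10 libraries. Over all genes, those marked in at least 2 libraries fell from 3460 to 1284. The share of all genes marked in at least 10 of the cut lists is not given here, and the 5.93% above belongs to the full lists.

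**Figure D1:**
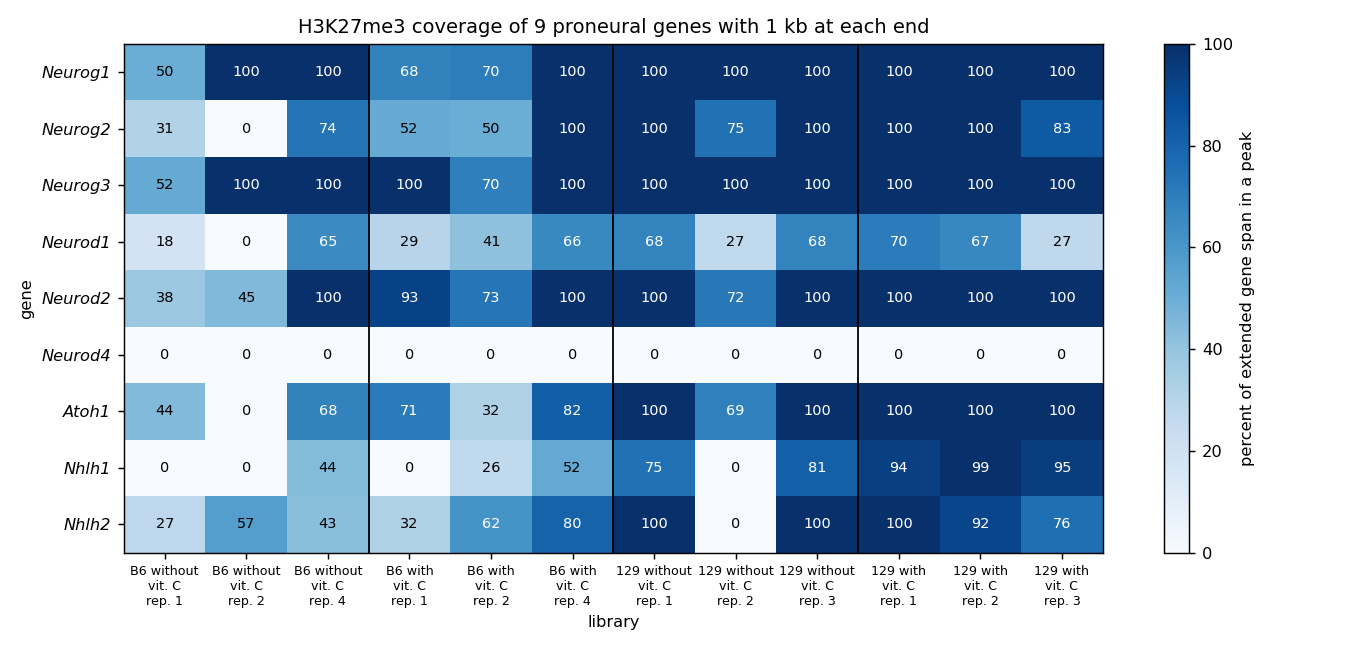
Percent of each gene span, extended by 1 kb at each end, that lay in an H3K27me3 peak, for 9 proneural genes (rows) in 12 libraries (columns, 3 per group, groups parted by lines). Neurog1 and Neurog3 are near 100 in most columns, Neurod4 is 0 throughout, and B6 without vitamin C replicate 2 shows 0 at 5 of the 9 genes.

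The neurogenins, the determination factors of this family, carried broad domains. Neurog1 (chr13:56250478-56252180), which directs cranial sensory neuron formation, had a median summed peak width of 17.6 kb, wider than at 84.5% of the 1298 genes marked in at least 10 libraries, whose median was 7.67 kb. The widths were 2.03, 10.3 and 18.6 kb in B6 without vitamin C, 5.64, 8.95 and 17.8 kb in B6 with vitamin C, 21.1, 9.00 and 21.7 kb in 129 without vitamin C, and 23.6, 17.3 and 18.7 kb in 129 with vitamin C. The 4 groups overlapped, and the narrowest value came from the list with the shortest peaks. In 9 libraries the whole extended gene was covered. The point of maximum signal lay close to the start, at a median of -0.053 kb, with negative values upstream. By median width, Neurog2 was wider than 78.5% of the same 1298 genes and Neurog3 wider than 73.0%. Other members were narrower than most of them: Nhlh2 was wider than 36.4%, Neurod1 than 34.6%, Atoh1 than 15.6% and Nhlh1 than 1.54%.

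Neurog3 (chr10:62133090-62134763), known for specifying endocrine cells of the pancreas and also expressed in parts of the brain, was marked in full in 129. Its widths were 1.91, 9.44 and 13.3 kb in B6 without vitamin C, 10.7, 4.57 and 12.0 kb in B6 with vitamin C, 15.5, 9.72 and 15.5 kb in 129 without vitamin C, and 13.2, 12.9 and 13.8 kb in 129 with vitamin C. All 6 libraries of 129 covered the extended gene in full, as did 4 of the 6 B6 libraries. The maximum lay inside the gene in 11 of 12 libraries, at a median of 0.168 kb downstream of the start.

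Neurog2 (chr3:127632733-127635636), which drives neurogenesis in the dorsal forebrain and in sensory placodes, had a narrow domain or none in 4 of 6 B6 libraries and a broad one in each 129 library. Its widths were 1.52, 0 and 8.35 kb in B6 without vitamin C, 2.53, 2.46 and 20.2 kb in B6 with vitamin C, 22.1, 13.0 and 17.7 kb in 129 without vitamin C, and 23.1, 18.5 and 16.9 kb in 129 with vitamin C. Without vitamin C each B6 value lay below each 129 value, and with vitamin C a single B6 library reached into the 129 range. The maximum sat in the gene body in 7 of 11 libraries, 1.18 to 1.35 kb past the start. In the other 4 it lay outside the gene, upstream at -4.39 and -4.35 kb or downstream at 6.59 and 6.96 kb.

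Atoh1 (chr6:64729125-64731245), the determination factor of inner ear hair cells and cerebellar granule cells, had a narrower domain in each B6 library than in each 129 library of the same diet. Its widths were 1.82, 0 and 3.83 kb in B6 without vitamin C, 4.14, 1.33 and 5.13 kb in B6 with vitamin C, 11.2, 4.71 and 10.4 kb in 129 without vitamin C, and 17.8, 9.27 and 9.25 kb in 129 with vitamin C. The widest B6 domain, 5.13 kb, exceeded the narrowest 129 domain, 4.71 kb, across diets only. Upstream of the start the domain ended within 4.16 kb in every library, whereas downstream it reached 0.495 to 2.38 kb in B6 and 1.85 to 13.6 kb in 129.

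**Figure D2:**
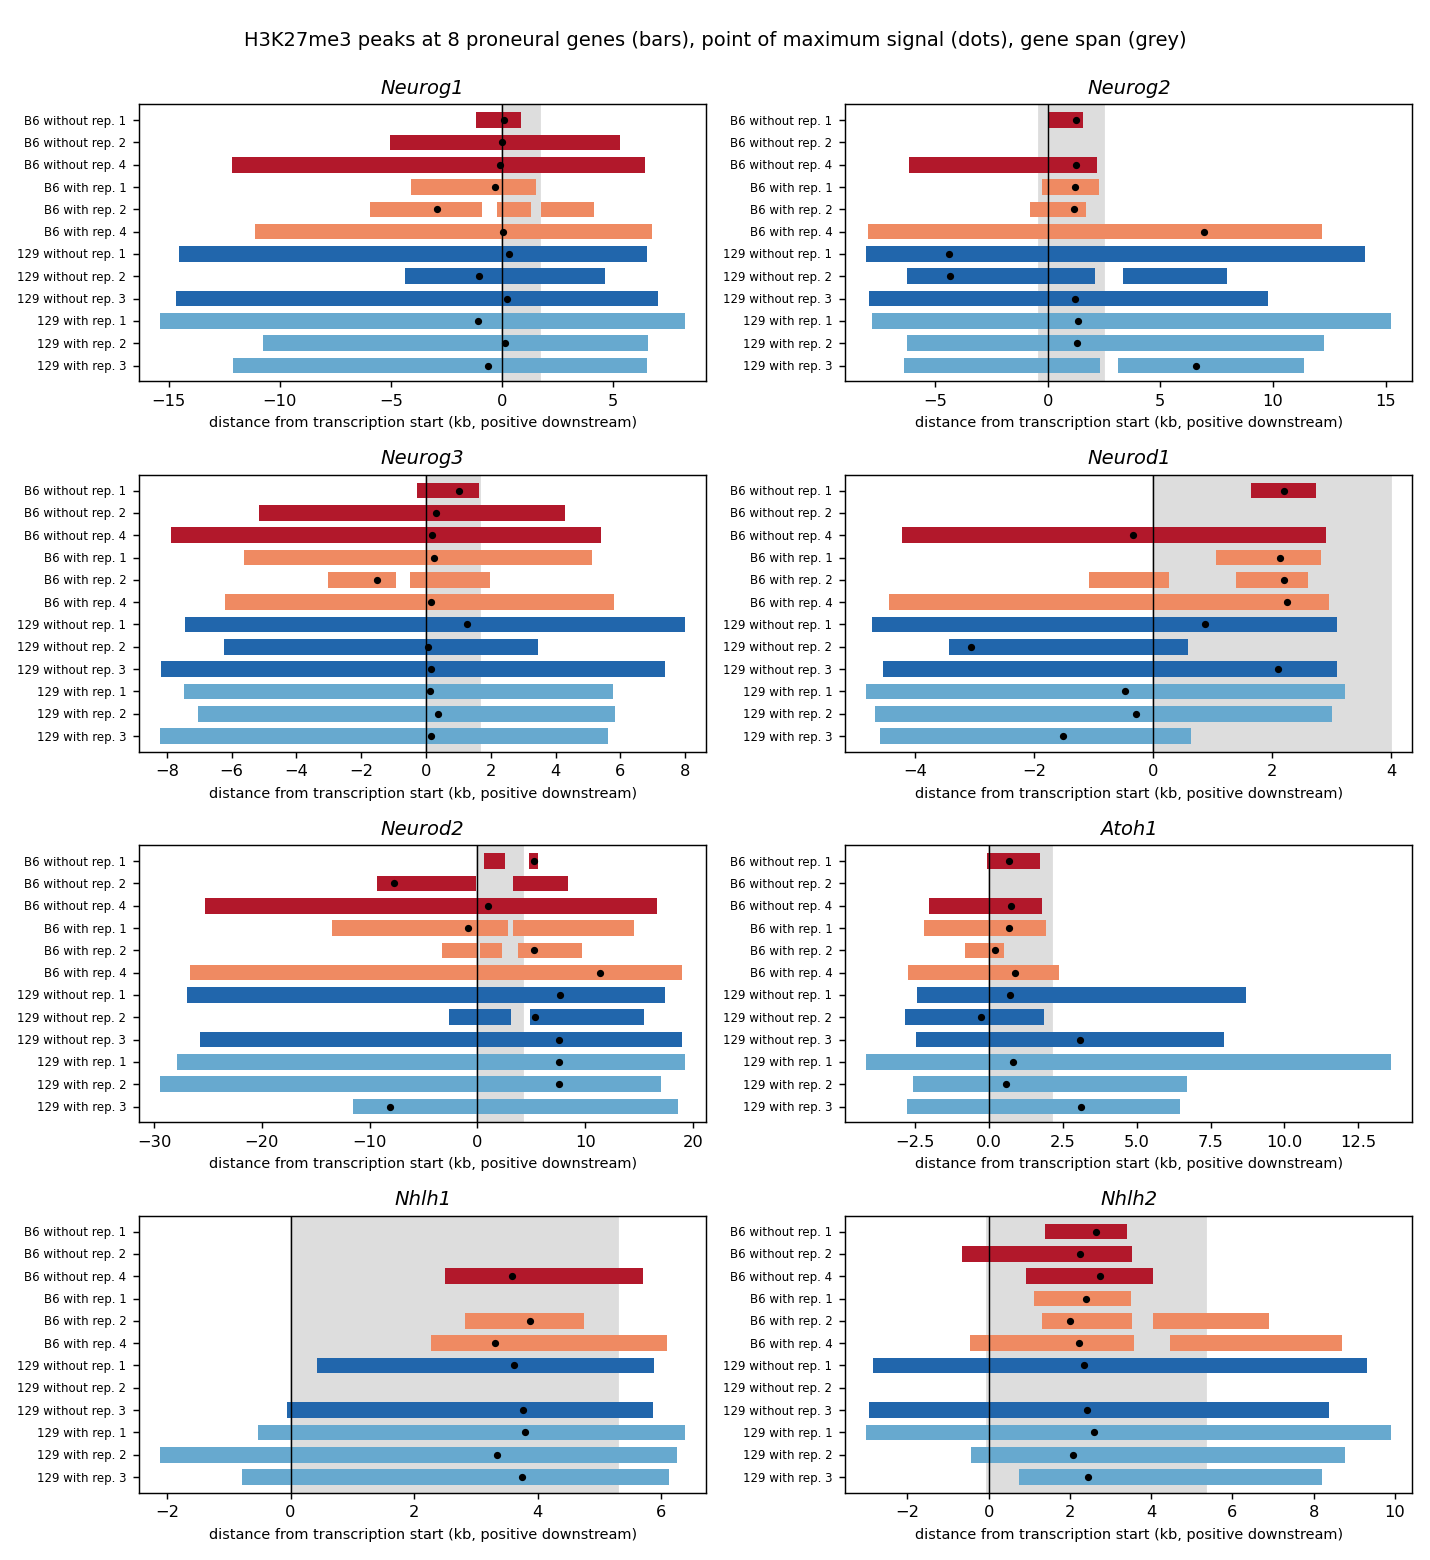
H3K27me3 peaks along 8 proneural genes: each bar is a peak in 1 library, placed by distance from the transcription start in kb with downstream positive, the dot is the point of maximum signal, and grey is the gene span (RefSeq spans of Neurog2 and Nhlh2 begin slightly before the start used). Domains of Neurog1, Neurog3 and Neurod2 spread to both sides of the start, that of Atoh1 extends downstream in 129, and the dots of Nhlh1 and Nhlh2 sit well inside the gene.

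Among the differentiation factors, Neurod2 had the broadest domain of the set and Neurod4 none. Neurod2 (chr11:98325415-98329645), a factor of maturing cortical neurons, had a median width of 36.1 kb, wider than at 96.8% of the widely marked genes. Its widths were 2.81, 14.2 and 42.0 kb in B6 without vitamin C, 27.6, 11.4 and 45.7 kb in B6 with vitamin C, 44.4, 16.3 and 44.7 kb in 129 without vitamin C, and 47.2, 46.5 and 30.2 kb in 129 with vitamin C. Each group but 129 with vitamin C held a narrow and a broad domain, so the groups overlapped over most of their range.

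The Neurod2 domain extended over neighbours in part of the libraries. Joined over libraries it spanned 48.8 kb (chr11:98310357-98359110) and took in Gm33099, Ppp1r1b, a phosphatase inhibitor gene of striatal neurons, and the edge of Stard3, a lipid transfer gene. A single peak ran from the extended span of Neurod2 into Gm33099 in 9 libraries, into Ppp1r1b in 6 (2 of B6 and 4 of 129) and into Stard3 in 1. Gm33099 and Ppp1r1b were marked in all 12 libraries, so in the remaining ones by peaks apart from those of Neurod2. The maximum fell inside Neurod2 in 1 library only. It lay 7.59 to 7.67 kb past the start in 4 libraries of 129 and between -8.13 and 11.4 kb in the others. The joined regions of the other 7 marked genes, 8.04 to 23.6 kb long, held no further protein-coding gene.

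Neurod1 (chr2:79452637-79456636), which acts in differentiating neurons and in pancreatic islets, was marked over its start in 9 of 11 libraries with a peak, and along its full length in 0. Its widths were 1.08, 0 and 7.12 kb in B6 without vitamin C, 1.76, 2.55 and 7.39 kb in B6 with vitamin C, 7.81, 4.02 and 7.62 kb in 129 without vitamin C, and 8.04, 7.67 and 5.23 kb in 129 with vitamin C. The highest value of each B6 group lay within the range of the 129 groups. No library exceeded 70.4% of the extended gene, and the domain ended 0.590 to 3.22 kb past the start, short of the 3′ end. Neurod4 (chr10:130268152-130280254), a factor of early neurons and retina, had no peak in any library.

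Nhlh1 and Nhlh2, which are expressed in newly formed neurons, were marked in the gene body more than at the start. Nhlh1 (chr1:172052292-172057596) had widths of 0, 0 and 3.20 kb in B6 without vitamin C, 0, 1.93 and 3.82 kb in B6 with vitamin C, 5.45, 0 and 5.94 kb in 129 without vitamin C, and 6.92, 8.37 and 6.92 kb in 129 with vitamin C. In all 8 marked libraries the maximum lay 3.32 to 3.88 kb past the start, inside the gene. The peak took in the start itself in 4 libraries, all of 129.

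Nhlh2 (chr3:102010111-102015492) had widths of 2.03, 4.19 and 3.14 kb in B6 without vitamin C, 2.39, 5.09 and 8.28 kb in B6 with vitamin C, 12.2, 0 and 11.3 kb in 129 without vitamin C, and 12.9, 9.20 and 7.44 kb in 129 with vitamin C. The groups overlapped on either diet because of the unmarked 129 library or the widest B6 library. Its maximum lay 2.00 to 2.74 kb past the start, inside the gene, in all 11 marked libraries, and the start was in the peak in 6.

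Within the lists, the peaks of Neurod2 and the neurogenins ranked highest of the set by median total signal, a measure that sums over the length of a peak. As percentiles of total signal within a list, the medians over marked libraries were 99.2 for Neurod2, 94.4 for Neurog1, 93.5 for Neurog3, 88.8 for Neurog2, 75.6 for Atoh1, 73.6 for Nhlh2, 64.4 for Neurod1 and 32.0 for Nhlh1. Single libraries ran from 74.6 to 99.7 at Neurod2, 84.9 to 96.0 at Neurog1, 84.8 to 96.6 at Neurog3 and 49.2 to 96.6 at Neurog2. The range was 14.8 to 87.8 at Atoh1, 2.81 to 85.8 at Nhlh2, 5.76 to 88.6 at Neurod1 and 12.0 to 69.4 at Nhlh1. The maximum signal, which does not sum over length, gave another order. Its median percentile was 93.4 at Neurod2, 91.6 at Neurog3, 81.4 at Neurog2, 80.3 at Neurog1, 78.7 at Neurod1, 74.7 at Nhlh2, 66.2 at Atoh1 and 29.9 at Nhlh1. Neurod1 ranked higher by maximum than by total, and Nhlh1 was the lowest by both.

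No proneural gene passed the threshold for a difference in the extent of the mark with vitamin C. All 8 tested genes had narrower mean widths without than with it, averaged over backgrounds, with differences from -0.32 kb at Neurog3 to -7.34 kb at Neurod2. The same direction was found at 85.8% of the 3460 genes marked in at least 2 libraries (15.8% of all genes), which were the genes tested. The median difference was -2.15 kb over the 8 genes and -1.49 kb over all tested genes. In an exact two-sided permutation test the diet labels were exchanged among the libraries of each background, with 400 relabellings and 0.005 as the lowest p that can be reached. With Benjamini-Hochberg adjustment over all 3460 genes, it called 0 of the 8, with adjusted p of 0.79 to 1. At an unadjusted p under 0.05 the test called 0 of the 8 and 2.4% of all genes (83 genes), and after adjustment 0 genes. Only 4 genes stood at the lowest p, too few for that p to pass the threshold after adjustment.

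The diet difference of Neurod2 was the widest in kb but stood within its spread. Its width averaged 19.7 ± 20.1 kb in B6 without and 28.2 ± 17.1 kb in B6 with vitamin C, and 35.2 ± 16.3 kb in 129 without and 41.3 ± 9.63 kb in 129 with vitamin C (SD, n = 3 each). With peaks less than 5 kb apart joined, the difference was -7.60 kb at Neurod2 (exact permutation p 0.07, against 0.42 as listed). At Atoh1 it was then -4.51 kb (exact permutation p 0.08), and adjusted p was 0.751 at both. That setting called 0 of the 8 at an unadjusted p under 0.05, beside 3.41% of all genes. With the peaks as listed, Nhlh1 had the smallest unadjusted p of the set (0.1, exact permutation test, adjusted p 0.79), and its difference was -2.23 kb. In 129 every library without vitamin C lay below every library with it at Nhlh1, a pattern found at 4.13% of genes by width. By coverage the values were 74.6%, 0% and 81.3% in 129 without vitamin C, against 93.5%, 99.3% and 94.7% in 129 with vitamin C, and 3.99% of genes showed the same separation. In B6 the values of the diets overlapped at all 8 genes (2.77% of tested genes were fully lower without vitamin C by width). Within 1 background 3 libraries against 3 cannot go below a p of 0.1, so no test was made there.

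The common direction by width did not hold under each choice of libraries. Without B6 with vitamin C replicate 4, 5 of the 8 genes lay below 0 and 3 above (Neurog1, Neurog3 and Neurod1). The median was then -0.94 kb, against -0.83 kb over all genes. Omission of the 2 shortest lists, both without vitamin C, was an alternative added after the data were seen. It also left 5 genes below 0 and the same 3 above, with a median of -0.70 kb against -0.34 kb over all genes. On the same reduced set, coverage was lower at 7 genes and higher at 1 without vitamin C. The coverage median was -5.40 percentage points, against -0.48 over all genes. By presence 1 gene was then marked in a smaller share of libraries without vitamin C, and 0 in a larger share. The remaining values of this paragraph come from all lists, the 2 shortest included. There, by coverage, 7 genes were lower and 1 was higher without vitamin C, beside 85% and 14.8% of all genes. The median of the 8 genes was -17.4 percentage points, against -2.76 over all tested genes. Coverage is a share of the extended gene, which was 3.67 to 7.38 kb long at these 8. A given length of mark is a larger share of a shorter gene, and no coverage median here was matched for gene length. The exact permutation test made 0 calls after adjustment and 0 at an unadjusted p under 0.05 (2.05% of all genes). By presence 5 genes were marked in fewer libraries without than with vitamin C (62.2% of all genes were) and 3 in as many, with 0 calls by the same test before or after adjustment (0.0289% of all genes before it). The diet difference in 129 minus that in B6 ran from -2.76 kb at Nhlh1 to 3.20 kb at Neurog2, and its exact permutation test called 0 of the 8 before or after adjustment (unadjusted p 0.38 to 0.985, adjusted p 1; 0.0289% of all genes before adjustment). Since these are whole headfolds, fewer marked cells and less mark per cell cannot be told apart in any of these widths.

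**Figure D3:**
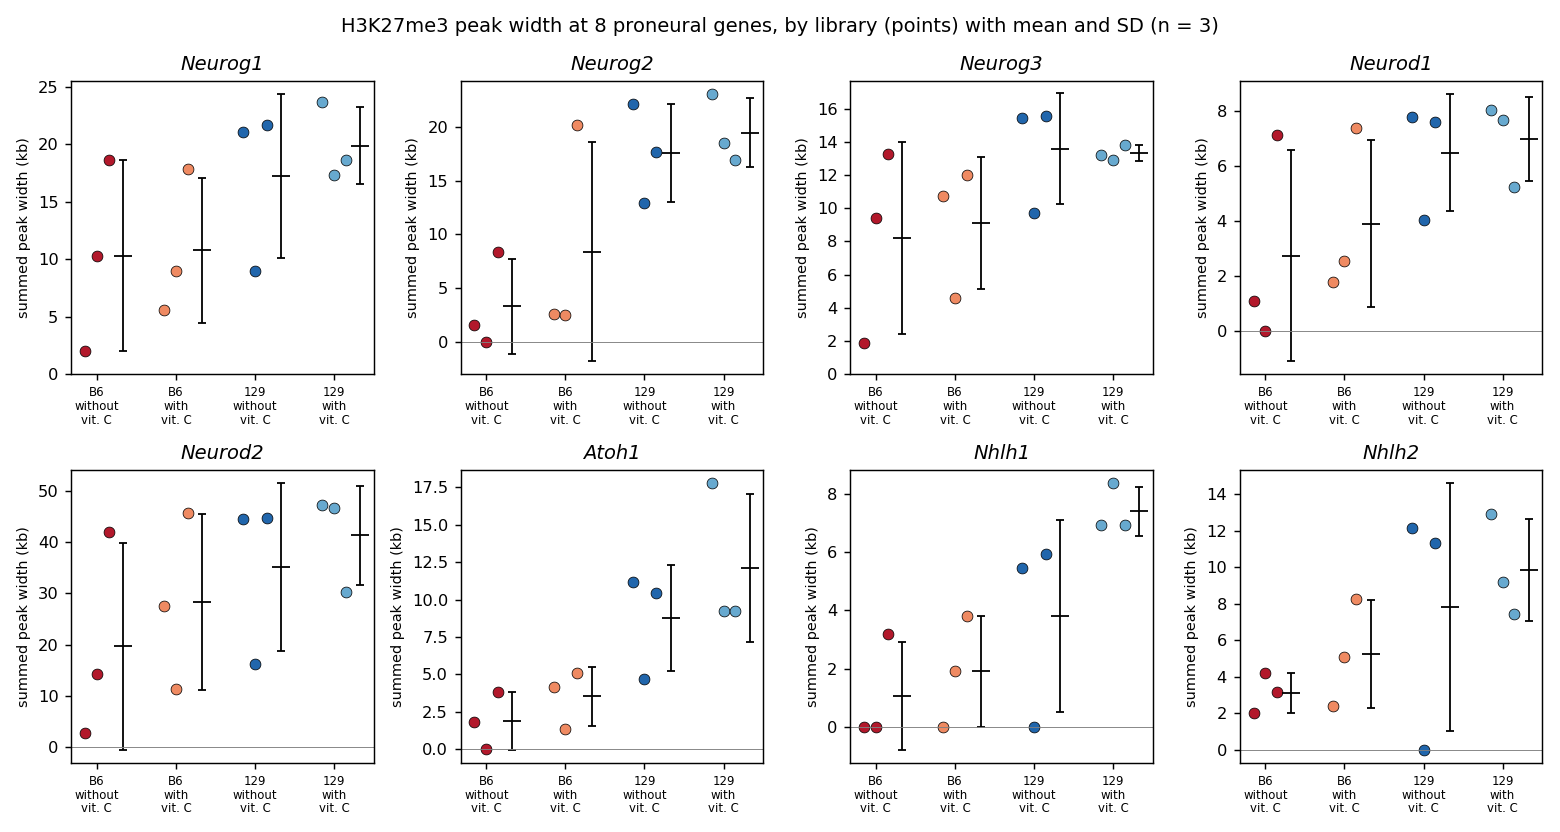
Summed width in kb of the H3K27me3 peaks that overlap each of 8 marked proneural genes, extended by 1 kb: points are libraries in 4 groups, and bars beside them are the mean and SD (n = 3). B6 points lie lower than 129 points on average in all panels, without overlap on either diet at Atoh1, and the points of the diets overlap in all panels but that of Nhlh1 in 129.

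Between backgrounds the domains were narrower in B6 than in 129 at all 8 genes, on average over diets, and no call survived adjustment. The differences ran from -3.41 kb at Neurod1 to -14.3 kb at Neurod2, with a median of -6.26 kb against -2.95 kb over all tested genes, of which 92.1% were narrower in B6. By the exact permutation test of background labels within diet (400 relabellings), adjusted p was 0.179 to 0.233 at the 8 genes, and 0 of 3460 genes passed. At an unadjusted p under 0.05 it called 4 of the 8, namely Atoh1, Neurog2, Nhlh1 and Neurog3, beside 23.6% of all genes. With 1 library left out at a time the number moved with the share of all genes. It was 2 without B6 without vitamin C replicate 1 (12.9% of all genes) or replicate 2 of that group (13.5%). It was 6 without B6 without vitamin C replicate 4 (27.1%), B6 with vitamin C replicate 4 (37.2%) or 129 without vitamin C replicate 2 (45.2%). With the 3 B6 embryos of 1 pregnancy averaged to 1 sample, it was 3 (Atoh1, Neurog2 and Neurog3) beside 12.9% of all genes. Atoh1 then had an exact permutation p of 0.0375 and Nhlh1 of 0.05, with the smallest possible p at 0.0125.

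Atoh1 averaged 1.89 ± 1.92 kb in B6 and 8.77 ± 3.53 kb in 129 without vitamin C, and 3.53 ± 1.97 kb in B6 and 12.1 ± 4.93 kb in 129 with vitamin C (SD, n = 3 each). Its difference over both diets was -7.73 kb, at the smallest p the exact permutation test can give (0.005, adjusted p 0.179). With peaks less than 5 kb apart joined, the difference was -4.12 kb (exact permutation p 0.135, adjusted p 0.290). With only peaks at or above the median maximum signal of their list, it was -6.31 kb (exact permutation p 0.085, adjusted p 0.259). Atoh1 was the only one of the 8 genes with each B6 library below each 129 library on both diets, a pattern of 2.28% of tested genes by width and 1.99% by coverage. With vitamin C alone that separation by width held at Neurog3, Atoh1 and Nhlh1 (17.1% of genes), and without it at Neurog2 and Atoh1 (6.62%).

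Neurog2 averaged 3.29 ± 4.45 kb in B6 and 17.6 ± 4.59 kb in 129 without vitamin C, and 8.39 ± 10.2 kb in B6 and 19.5 ± 3.19 kb in 129 with vitamin C (SD, n = 3 each), a difference of -12.7 kb (exact permutation p 0.015, adjusted p 0.179). With peaks less than 5 kb apart joined, the Neurog2 difference was -6.79 kb (exact permutation p 0.075, adjusted p 0.237). On that setting 3 of the 8 genes had an unadjusted p under 0.05, beside 20.1% of all genes. They were Nhlh1 and Neurod2 (exact permutation p 0.03 each) and Neurog3 (p 0.045). By coverage, with the peaks as listed, the largest difference of the set was that of Nhlh1, -53.5 percentage points (exact permutation p 0.03, adjusted p 0.258), followed by -45.3 at Atoh1 (p 0.005, adjusted p 0.243) and -41.9 at Neurog2 (p 0.025, adjusted p 0.254). These 3 were the only members with an unadjusted p under 0.05 by coverage, beside 16.9% of all genes, and their number was 2 beside 10.9% with that pregnancy averaged. All 8 were lower in B6 by coverage, as were 90.8% of all genes. By presence 4 genes were marked in fewer B6 than 129 libraries (59.3% of all genes) and Nhlh2 in more, 6 against 5 (10.9%), with 0 calls before or after adjustment (0.434% of all genes before it).

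The median peak width of the lists moved with the background, as given above. When each width was divided by the median peak width of its own list, a scale added after the data were seen, 4 of the 8 genes lay below 0 and 4 above. Neurog2 (-1.26 median widths) and Atoh1 (-0.67) lay furthest below, and Neurod2 (0.75), Neurog1 (0.40), Neurog3 (0.36) and Nhlh2 (0.26) above. On that scale Atoh1 alone had an unadjusted p under 0.05 (0.02 by the exact permutation test, adjusted p 0.965), beside 3.5% of all genes. The diet difference in 129 minus that in B6 lay above 0 at all 8 genes on that scale. Its median was 1.11 median widths over the 8 genes, and also above 0, at 0.53, over all tested genes. The exact permutation test made 0 calls after adjustment and 1 at an unadjusted p under 0.05, beside 4.88% of all genes. Without the 2 lists of short peaks, Neurog2 and Atoh1 alone kept an unadjusted p under 0.05, beside 5.87% of all genes, and all 8 differences stayed below 0. The library numbers in the labels were 105 to 122 for B6 and 73 to 85 for 129, so the background and the library series cannot be told apart.

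The promoters of the 9 genes ranged from CpG-rich to CpG-poor, and those with under 10 CpG had a peak in fewer libraries than the rest. Among those with 10 or more, the number of libraries did not rise with the number of CpG. Windows of 300 bases, from 250 before to 50 after each annotated start, were compared for 21263 promoters of protein-coding genes, whose median was 13 CpG. Neurog1 had 32 CpG, Neurod1 26, Atoh1 20, Neurog3 19, Neurod2 16 and Neurog2 10, and a peak lay over these windows in 12, 9, 11, 12, 11 and 11 libraries in the same order. Nhlh1 and Nhlh2 had 2 CpG each, fewer than at most promoters (11.4% had fewer), and a peak over the window in 4 and 6 libraries. Both windows of Neurod4, which has 2 annotated starts, had 4 and 7 CpG and no peak. Over all promoters, a peak in at least 10 libraries was found at 0.447% of those with under 5 CpG, 3.05% with 5 to under 15, 4.60% with 15 to under 25 and 4.47% with at least 25.

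**Figure D4:**
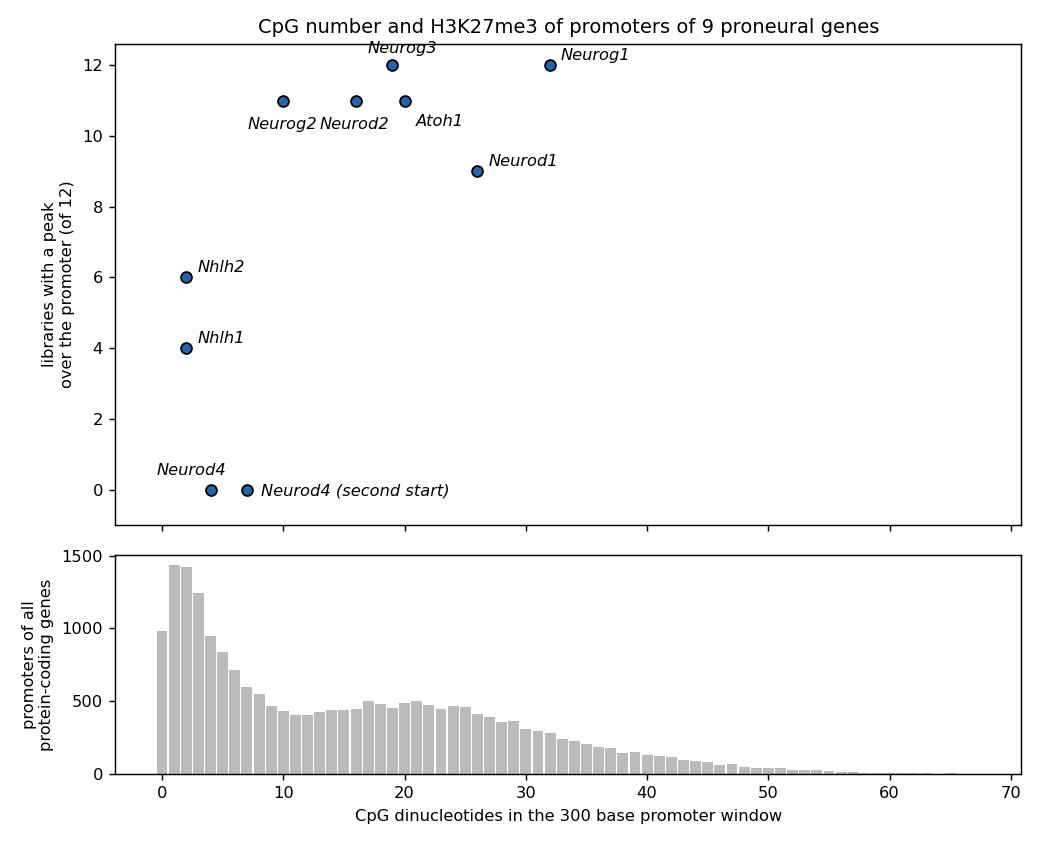
Upper panel, the number of libraries (of 12) with an H3K27me3 peak over the promoter window against the number of CpG dinucleotides in it, for 10 windows of 9 proneural genes. Lower panel, the distribution of CpG number over all promoters of protein-coding genes: the Nhlh and Neurod4 windows fall in the low range, and the others have 10 or more CpG and a peak in 9 or more libraries.

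E-boxes are the kind of site that bHLH factors bind, and their general motif was about as frequent in these windows as in all promoters. This motif, CANNTG, which reads the same on both strands, occurred in 7 of the 10 windows and in 69.0% of all promoters. The windows of Neurod4 overlap each other and are counted apart. Its version CAGATG, searched on both strands and always part of a CANNTG match, occurred in 3 windows (Neurod2, Nhlh1 and Nhlh2) and in 14.6% of all promoters. A match of letters is not a measured binding site.

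For the partners of proneural factors and the Notch pathway, counts are read against the 5.93% of all genes marked in at least 10 libraries. Of 6 genes for E proteins and Id inhibitors, the dimer partners and their antagonists, 0 were marked in at least 10 libraries, and Tcf3, Tcf12, Id1, Id2 and Id3 had no peak in any. Of 19 genes for Notch ligands, receptors and effectors, 3 were so marked: the ligand gene Dll4 and the effector genes Hes3 and Heyl. Jag1, Notch1, Notch2, Notch3, Hes1, Hes6, Mfng and Rfng were marked in none. No E protein or Id gene was marked widely enough to be tested, and of 9 Notch genes tested 0 were called for diet or background by width, with the same exact permutation test after adjustment. At an unadjusted p under 0.05 the Notch list held 0 of 9 for diet and 2 of 9 for background, beside 2.4% and 23.6% of all tested genes.

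Other neural bHLH genes and neuronal genes downstream were counted the same way, against the same 5.93%. Of 17 further neural bHLH genes, 8 were marked in at least 10 libraries, among them in all 12 Ptf1a, Olig2, Bhlhe23, and also Msc and Tal1, better known from muscle and blood, while Neurod6 and Ascl3 were marked in none. Of 21 genes of neuronal differentiation, 12 were so marked, with Ebf2, Ebf3, Pou4f2, Tbr1, Tlx3, Lhx2 and Lhx9 in all 12 libraries, and St18, Myt1 and Elavl4 in none. By diet, Isl1, a gene of motor and sensory neurons, was marked in 2 libraries without and 5 with vitamin C. Its width difference by diet was -1.93 kb (exact permutation p 0.66, unadjusted). Between backgrounds the largest differences in the number of marked libraries were at Ferd3l (1 in B6, 4 in 129), Hes7 (3 and 6), Tubb3 (2 and 5) and Isl1 (2 and 5). At an unadjusted p under 0.05 by width, the bHLH list held 0 of 15 tested genes for diet and 4 of 15 for background, and the neuronal list 0 of 16 and 8 of 16, beside 2.4% and 23.6% of all tested genes, with 0 after adjustment.

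The genes whose coverage over the 12 libraries was most like the mean of the 9 proneural genes were, by mean absolute difference, Yjefn3 (5.95 percentage points), Nfix (6.31), Myorg (6.56), Nptx1 (6.74) and Nrbp2 (7.05). The mean coverage they were matched to was 29.0%, 33.5% and 65.9% in B6 without vitamin C, 49.5%, 47.1% and 75.6% in B6 with vitamin C, 82.5%, 49.2% and 83.3% in 129 without vitamin C, and 84.9%, 84.2% and 75.7% in 129 with vitamin C. It was low in 1 of the 129 libraries, the one with the fewest peaks of that background, and high in 1 library of each B6 group.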

How the data were processed

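H3K27me3 CUT&Tag peak lists of 12 libraries were used, 3 per background and diet; 4 IgG samples and 2 further B6 H3K27me3 samples were not analysed here. B6 replicates are numbered 1, 2 and 4. Per the submitters' processing notes, reads passed through cutadapt, Bowtie2, Picard and SEACR on mm10; for their versions and settings, and for the use of IgG or a numeric cutoff in peak calling, no value is stated (not given in the sources used here). The lists deposited by the authors hold 1 library each, with position, total signal and maximum signal of every peak. The signal was used for rank within a list only, since the smallest total signal in a list ran from 1907 to 53218. Read depth is unknown, so no interval from depth can be given. A peak list cannot check the Gulo deletion.

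Gene spans came from RefSeq (GRCm38.p6), extended by 1 kb, with at least 1 bp of overlap; width is the summed width of whole overlapping peaks. Transcription starts and strand came from the RefSeq promoter table, which matched all 9 genes. All protein-coding genes marked in at least 2 of 12 libraries (3460) were tested by exact two-sided permutation within strata (400 relabellings) with Benjamini-Hochberg adjustment, threshold 0.05. The replicates are separate embryos, but the 3 of B6 with vitamin C share a pregnancy code. Members and lists were chosen with earlier results of these data known. Named beyond the 9 were list genes marked in 12 or in 0 libraries, up to 4 per list with the largest difference in marked libraries, protein-coding neighbours within a domain, and the 5 most alike genes over 1 Mb away and outside the lists. Of those with the largest difference, only differences of 3 libraries are named, and a gene that the rule names is not reported here. The tests were tried on simulated data. Alternatives were windows of 0, 2.5 and 5 kb, a minimum peak width of 1 kb, a minimum maximum signal set at the median of the list, equal lists, joining within 5 kb, averaged pregnancies, females only, a log2 scale, no minimum of libraries, omission of short-peak lists or of each library, and, added after the data were seen, scaled widths and omission of the 2 shortest lists. Python 3.11.15, NumPy 2.4.6, pandas 2.3.3 and Matplotlib 3.10.9 were used.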

Additional observations from a re-analysis of the deposited data

How the results depend on the processing

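After adjustment 0 of the proneural genes were called for diet, background or their interaction under every alternative run. With equal lists of 748 peaks, 3 genes (7 in the full lists) were marked in at least 10 libraries, and 5.33 genes per library (7.33 in the full lists). Of all genes, 1284 were then marked in at least 2 libraries (3460 in the full lists). With 1 library left out at a time, 7 genes were marked in at least 10 of 11 libraries each time. The share of all genes so marked is not given here for these settings or the equal lists. The 5.93% belongs to 10 of 12 full lists.

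Diet differences in width (without minus with vitamin C) changed sign at 4 genes. Neurog3 gave 0.026 kb with no window, 1.29 kb in females, 0.12 kb without the short-peak lists and 0.33 kb without the 2 shortest lists. Neurog1 gave 0.050 and 0.50 kb under the last 2 of these settings. Neurod1 gave 0.58 kb with equal lists and 0.47 kb without the 2 shortest lists, and Nhlh2 2.79 kb with equal lists. With equal lists 7 of the genes were tested, and the common direction was lost by coverage and by presence. By coverage 3 lay below 0 and 4 above, with a median of 2.22 percentage points against -4.27 over all tested genes. By presence 1 lay below 0 and 3 above. The cause was not tested. With 1 library left out, Neurog3 ranged from -1.59 to 1.25 kb, Neurog1 from -3.63 to 0.51 kb and Neurod1 from -1.93 to 0.041 kb; the sign turned without B6 without vitamin C replicate 1 (Neurog1 0.51, Neurog3 1.25), B6 with vitamin C replicate 1 (Neurog3 0.086), B6 with vitamin C replicate 4 (Neurog1 0.20, Neurog3 0.40, Neurod1 0.041) or 129 without vitamin C replicate 2 (Neurog1 0.50, Neurog3 0.64).

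Background differences (B6 minus 129) stayed below 0 at all 8 genes except on the scale of width over the list's median, where Neurog1 was 0.40, Neurog3 0.36, Neurod2 0.75 and Nhlh2 0.26; list grain and background run together. The number of genes at an unadjusted p under 0.05 for background was 2 to 6 with 1 library left out, while the share of all genes ran from 12.8% to 45.2%. For diet it was 0 to 1, with 0.621% to 6.3% of all genes.

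No paired analysis was possible because the labels hold no replicate numbers; the numbers used here follow accession order within a group and pair no embryos. Depth is unknown, so an absent peak in a short list does not show an absent mark. Females only, 2 per group, cannot reach p below 0.0556.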
